A study of Arabidopsis thaliana with 20 samples.

Results

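Leaves of the Arabidopsis thaliana line labelled ilp1-1 were compared before high light and after 8 h of it. The comparison took the 2 ilp1-1 libraries of 8 h and the 2 ilp1-1 libraries of 0 h, 4 of the 20 poly-A RNA-seq libraries of the series. The 4 libraries of the wild type Col-0 from the same hours were set beside them, and the remaining 12 libraries (4, 16 and 30 h) entered the fit for its estimate of spread and are given as levels. All plants were 4 weeks old, grown with 10 h of light and 14 h of dark, and had received 2 h of normal light of 100 µmol photons per m2 and s when the 0 h leaves were taken. High light of 500 µmol followed without a break for 24 h, and the 30 h harvest came after 6 h back in normal light. ilp1-1 is a mutant of ILP1, whose protein takes part in the disassembly of spliceosomes. The labels name 1 mutant line, and they do not say whether a library holds 1 plant or a pool, so p-values cover only the spread among these samples, which may be technical. Leaves kept in normal light until the 8 h harvest were not analysed here, so 8 h of strong light and 8 h of elapsed day cannot be told apart.

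The 4 ilp1-1 libraries held 11387202 to 18951402 reads recovered from FPKM and the 4 Col-0 libraries of the same hours 14389118 to 18391281. Levels are FPKM, reads scaled by gene length and by the authors' library factor, and changes are differences of log2(FPKM + 1) with their standard error. A gene was called at a limma adjusted p under 0.05 over all 19311 genes tested. RBCS1A, a Rubisco small subunit gene of mesophyll cells, took 2.37 to 2.60% of the reads of the 4 ilp1-1 libraries, and none of the 4 root markers (RHD6, WOX5, CASP1, PHT1;1) reached the filter. The share of reads from the plastid genome was 0.0349 and 0.0313% at 0 h and 0.0995 and 0.129% at 8 h in ilp1-1, against 0.0188 to 0.0316% over all Col-0 libraries.

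A leaf at the start of the day and a leaf near the end of it differ through the circadian clock, in which the dawn proteins CCA1 and LHY repress evening genes and are in turn repressed by PRR proteins and TOC1. Strong light on top of this drives plants to shrink their light-harvesting antenna, to make protective pigments such as anthocyanins, and to store or export more carbon. Heat shock proteins and the mitochondrial alternative oxidase are classic markers of protein and organelle stress. The plastid holds a small genome of its own, and its ribosomes combine subunits from that genome and from the nucleus.

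The promoters of 5 genes with large changes are shown because they carry the motifs by which the clock is known to time transcription. The evening element (AAAATATCT) is bound by CCA1 and its relatives, and the G-box (CACGTG) by bHLH and bZIP factors. Each window is the 250 bases before the annotated start on TAIR10.1 from RefSeq, written 5′ to 3′ along the gene's strand. Capitals mark every match to the motif named, on either strand.
GRP7 (chr2:9266558-9266807, minus strand, evening element): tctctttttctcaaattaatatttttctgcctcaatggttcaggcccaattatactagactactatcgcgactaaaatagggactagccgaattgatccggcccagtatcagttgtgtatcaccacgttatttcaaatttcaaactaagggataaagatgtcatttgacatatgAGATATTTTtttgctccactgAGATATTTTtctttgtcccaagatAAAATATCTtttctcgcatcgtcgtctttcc
ISA3 (chr4:5783659-5783908, plus strand, evening element): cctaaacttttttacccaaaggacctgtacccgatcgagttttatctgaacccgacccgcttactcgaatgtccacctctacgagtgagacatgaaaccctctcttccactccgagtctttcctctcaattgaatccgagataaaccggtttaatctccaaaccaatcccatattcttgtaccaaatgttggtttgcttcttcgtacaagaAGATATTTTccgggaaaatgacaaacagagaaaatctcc
PRR5 (chr5:8358547-8358796, minus strand, evening element): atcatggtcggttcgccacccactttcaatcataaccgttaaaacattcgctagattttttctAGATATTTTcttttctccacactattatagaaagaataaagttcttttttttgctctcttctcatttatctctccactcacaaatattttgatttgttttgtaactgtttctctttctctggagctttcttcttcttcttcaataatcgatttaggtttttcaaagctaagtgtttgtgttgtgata
CCA1 (chr2:19245341-19245590, plus strand, G-box): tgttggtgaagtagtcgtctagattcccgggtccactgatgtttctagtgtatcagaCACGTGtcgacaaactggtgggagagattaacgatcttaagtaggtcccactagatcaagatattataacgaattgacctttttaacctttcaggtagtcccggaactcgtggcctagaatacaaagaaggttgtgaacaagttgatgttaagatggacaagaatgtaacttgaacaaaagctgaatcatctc
LHY (chr1:37872-38121, minus strand, G-box): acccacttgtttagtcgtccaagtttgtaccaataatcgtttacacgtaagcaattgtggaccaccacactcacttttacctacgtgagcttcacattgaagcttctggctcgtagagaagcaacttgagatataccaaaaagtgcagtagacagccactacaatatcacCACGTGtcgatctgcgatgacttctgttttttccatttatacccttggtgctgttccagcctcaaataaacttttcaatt

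The GRP7 window held 3 matches, starting 76, 55 and 31 bases before the gene. The ISA3 and PRR5 windows held 1 match each. Among all 18962 windows of tested genes 2.49% held the evening element. It stood in 7.34% of the 1404 windows of genes called at least 2-fold higher at 8 h in ilp1-1 and in 1.41% of the 1414 windows of genes called at least 2-fold lower. Of the 16 evening clock genes listed, 7 had it (PRR5, TOC1, LUX, BOA, FKF1, GRP7, GRP8). The G-box stood in 7.35% of all windows and in 6 of 14 windows of the morning clock list (CCA1, LHY, RVE1, RVE2, LNK3, PRR9). It stood in 9.19% of the windows of genes called at least 2-fold higher and in 9.55% of those called at least 2-fold lower. Lists with many higher calls held it too, with 6 of 21 starch breakdown genes and 8 of 29 flavonoid genes. A match describes letters in a window and is not a binding site.

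ILP1 (AT5G08550, chromosome 5, 2765642 to 2770282), the gene mutated in ilp1-1, fell from 0 h to 8 h in the libraries labelled ilp1-1. Its level was 7.17 and 8.90 FPKM at 0 h and 4.79 and 5.19 at 8 h there, and 2.63 and 3.88 and then 3.16 and 3.49 in Col-0. The libraries of 0 h and 8 h did not overlap in ilp1-1, and the level was not below that of Col-0 at either hour. The change was -0.59 ± 0.18 (adjusted p = 0.012) in ilp1-1 and 0.04 ± 0.18 (adjusted p = 0.881) in Col-0, and the difference between these changes did not pass (-0.62 ± 0.25, adjusted p = 0.117). The call in ilp1-1 was lost without ilp1-1 0 h replicate 2 (-0.45, adjusted p = 0.114) and without ilp1-1 8 h replicate 1 (-0.54, adjusted p = 0.0698). Reads of truncated or misspliced ILP1 message would be counted too, so its level does not tell how much intact message was present.

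Nearly as many genes were called higher at 8 h in ilp1-1 as were called lower. Of the 19311 genes, 9068 (47.0%) were called, 4595 higher (23.8%) and 4473 lower (23.2%), with 1467 and 1431 of them changed at least 2-fold. The median change of all genes was -0.016, and in 71.8% of them both libraries of one hour lay above both of the other. In Col-0, 9666 genes (50.1%) were called, 4812 higher (24.9%) and 4854 lower (25.1%). Higher in both genotypes were 3390 genes, which is 73.8% of the higher calls of ilp1-1 and 70.4% of those of Col-0, and lower in both were 3141 genes, 70.2 and 64.7% of the lower calls. Across the 19311 genes, which are not independent replicates, the changes of the 2 genotypes correlated with Pearson's r = 0.79 and a slope of 0.767 for ilp1-1 on Col-0, from libraries that the 2 comparisons do not share. The difference between genotypes in the change from 0 h to 8 h passed for 2563 genes (13.3%), 1253 with the more positive change in ilp1-1 (6.49%) and 1310 with the more positive change in Col-0 (6.78%). Called in opposite directions were 148 genes lower in ilp1-1 and higher in Col-0, and 87 genes higher in ilp1-1 and lower in Col-0. These are bulk leaf levels, in which fewer cells of a type and less RNA per cell cannot be told apart.

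**Figure D1:**
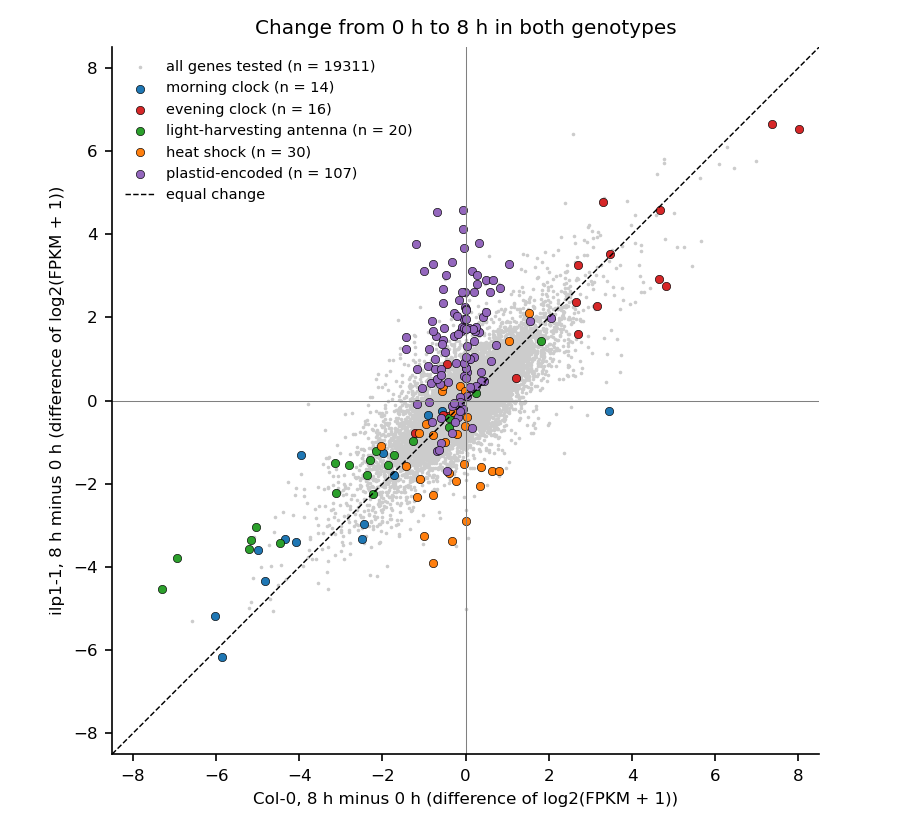
Each point is 1 of 19311 genes, with its change from 0 h to 8 h in Col-0 on the x axis and in ilp1-1 on the y axis, both as differences of log2(FPKM + 1), and coloured points are members of 5 gene lists. The dashed line marks equal change. LHY and CCA1 lie near its lower end and GRP7 and ELF4 near its upper end, RVE2 lies far below it, most antenna genes lie above it with smaller decreases in ilp1-1, and heat shock and plastid-encoded genes spread along the y axis.

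The lists of genes that follow are read against those shares: about 1 gene in 4 was called higher and about 1 in 4 lower. Evening clock genes, cytosolic ribosomal proteins, flavonoid genes and starch genes held a high share of higher calls in ilp1-1. Photosystem and antenna genes, morning clock genes, heat shock genes and auxin-responsive SAUR genes held a high share of lower calls. Nuclear genes for plastid ribosomal proteins were mostly called lower in ilp1-1, with 18 of 27, and mostly higher in Col-0, with 21 of 27.

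**Figure D2:**
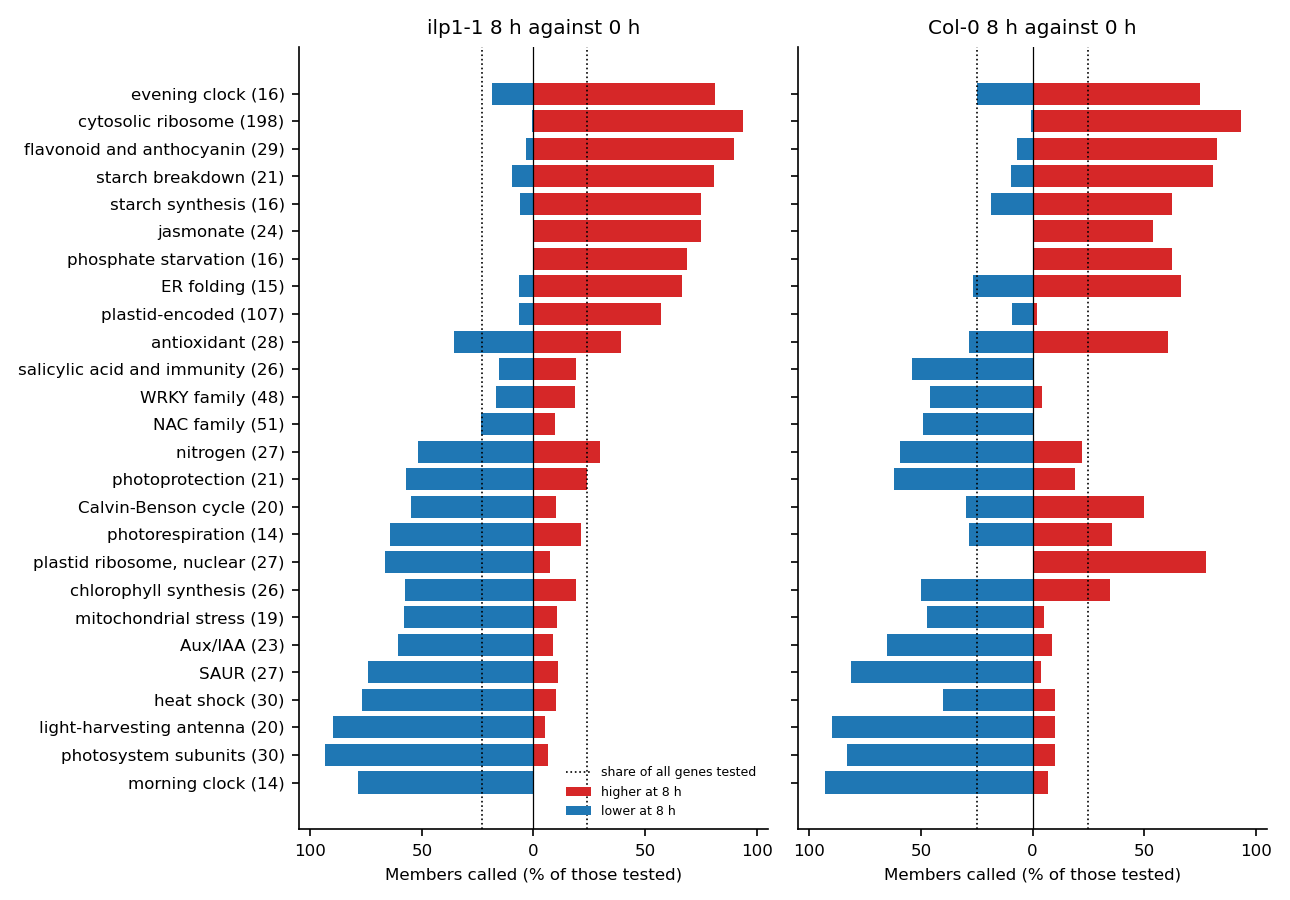
Bars give the share of tested list members called higher (red, right) and lower (blue, left) at 8 h, in percent, for ilp1-1 and Col-0, with the number tested in parentheses and dotted lines at the share of all genes tested. The plastid ribosome row points left in ilp1-1, with 18 of 27 lower, and right in Col-0, with 21 of 27 higher.

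Most evening-phased clock genes rose steeply in ilp1-1 by 8 h. Of 16 tested, 13 were called higher and 3 lower, with a median change of 2.57, and in Col-0 the counts were 12 and 4 with a median of 2.93. GRP7 (AT2G21660, chromosome 2, 9265084 to 9266557), an RNA-binding protein of a clock output loop, had the largest increase of the 12 named risers on the log2(FPKM + 1) scale, though not the largest ratio. It stood at 29.2 and 26.2 FPKM in the 2 libraries of 0 h and at 2896 and 2847 in those of 8 h. The ratio of the means was 104-fold, and that both 8 h libraries stood above both 0 h libraries was a condition of the choice of the 12. The change was 6.65 ± 0.094 (adjusted p = 3.44e-16), less than the 7.36 ± 0.094 of Col-0 (difference -0.71 ± 0.13, adjusted p = 0.00219). ELF4 (AT2G40080, chromosome 2, 16734294 to 16734953), a subunit of the evening complex that represses growth and dawn genes, went from 0.646 and 0.537 to 159 and 137 FPKM (6.54 ± 0.17, adjusted p = 1.95e-13). In Col-0 it went from 0.180 and 0 to 280 and 280 FPKM, a larger rise (difference -1.47 ± 0.25, adjusted p = 0.000893). The difference for ELF4 did not pass in limma-voom (-3.51, adjusted p = 0.122).

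The lower calls were ZTL and LKP2, relatives of FKF1, and CHE, a repressor of CCA1. The call on LKP2 was lost without any 1 of the 4 libraries and under other settings tried (-0.41 to -0.29, adjusted p up to 0.204), and that on BOA, a relative of LUX called higher, without ilp1-1 0 h replicate 2 or ilp1-1 8 h replicate 1 or 2 and in a fit of the compared libraries alone (0.37 to 0.60, adjusted p up to 0.231). The remaining evening genes divide by whether their change passed the test of a difference between genotypes. TOC1, a repressor of dawn genes, rose from 1.88 and 1.61 to 28.9 and 32.1 FPKM in ilp1-1 (3.52 ± 0.13) and its change differed from that of Col-0 by 0.04 ± 0.18 (adjusted p = 0.929). LUX, the DNA-binding subunit of the evening complex, rose by 2.38 ± 0.12, with a difference of -0.28 ± 0.17 (adjusted p = 0.318). FKF1, a blue-light receptor for flowering time, was listed at 0 reads in both ilp1-1 libraries of 0 h and reached 23.8 and 22.1 FPKM at 8 h, at least 234-fold higher than a floor of 3 reads per library. These 3 genes did not pass that test (adjusted p = 0.874 for FKF1). GI, ELF3, PRR3 and JMJD5 passed it, with smaller rises in ilp1-1. GI, a partner of the FKF1 family, started at 13.1 and 8.23 FPKM in ilp1-1 and at 3.33 and 2.64 in Col-0, and reached 33.4 and 33.7 in ilp1-1 and 25 and 25.1 in Col-0 (difference -1.12 ± 0.23, adjusted p = 0.0048). JMJD5, a histone demethylase-like clock protein, reached 11.8 and 9.71 FPKM in ilp1-1 and 71.2 and 70.1 in Col-0 (difference -2.06 ± 0.19, adjusted p = 4.47e-06). The differences were -0.88 ± 0.21 for ELF3 (adjusted p = 0.0112) and -1.72 ± 0.25 for PRR3 (adjusted p = 0.000268). The difference for ELF3 was lost without Col-0 0 h replicate 2 or ilp1-1 8 h replicate 1 and in limma-voom (-0.96 to -0.75, adjusted p up to 0.144). PRR5 and PRR7, repressors of CCA1 and LHY, had the more positive change in ilp1-1. PRR5 rose from 0.191 and 0.423 to 34.6 and 35 FPKM in ilp1-1 and from 0.496 and 0.518 to 13.5 and 14 in Col-0 (difference 1.49 ± 0.20, adjusted p = 0.000133). The Col-0 libraries of PRR5 were higher at 4 h (24.6 and 23.6 FPKM) than at 8 h, while those of ilp1-1 were lower at 4 h (7.45 and 5.22 FPKM). PRR7 rose by 0.89 ± 0.13 in ilp1-1 and fell in Col-0 (-0.44 ± 0.13; difference 1.33 ± 0.18, adjusted p = 0.000196). The decrease of PRR7 in Col-0 was not called without Col-0 0 h replicate 2 or Col-0 8 h replicate 2 (-0.42 to -0.31, adjusted p up to 0.13).

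Most dawn-phased clock genes fell. Of 14 tested, none was called higher and 11 were called lower, with a median change of -3.15, and in Col-0 1, RVE2, was called higher and 13 lower with a median of -3.23. LHY (AT1G01060, chromosome 1, 33365 to 37871) dropped from 120 and 110 FPKM to 0.635 and 0.596 (-6.16 ± 0.14, adjusted p = 4.21e-14), the largest decrease of the 12 named on the log2(FPKM + 1) scale. CCA1 (AT2G46830, chromosome 2, 19245591 to 19248915) dropped from 173 and 160 FPKM to 3.64 and 3.63 (-5.17 ± 0.17, adjusted p = 2.38e-12). That both 8 h libraries of each gene lay below both 0 h libraries was a condition of the choice of the 12. At 8 h Col-0 held less of both, with 0.103 and 0.130 FPKM of CCA1 and 0.0411 and 0 of LHY. The change of CCA1 was the more negative in Col-0 (difference 0.86 ± 0.24, adjusted p = 0.0288), and for LHY no difference passed (-0.29 ± 0.19, adjusted p = 0.371). That LHY value reversed to 1.62 with a pseudocount of 0.1 and to 3.77 in limma-voom, both called. The difference for CCA1 was lost without Col-0 0 h replicate 1 or 2, Col-0 8 h replicate 1 or 2, ilp1-1 0 h replicate 2 or ilp1-1 8 h replicate 1 or 2 and with no filter on low values (0.81 to 0.89, adjusted p up to 0.084).

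The coactivators LNK1 to LNK4, which work with REVEILLE proteins, and the REVEILLE gene RVE8 also fell, and those not called in ilp1-1 were RVE2, RVE6 and RVE7. LNK2 went from 103 and 101 to 6.98 and 8.07 FPKM in ilp1-1 and from 147 and 139 to 3.51 and 3.51 in Col-0 (difference 1.39 ± 0.12, adjusted p = 1.98e-06). LNK4 fell by 3.33 ± 0.084 on the log2 scale with a difference of 1.01 ± 0.12 (adjusted p = 3.81e-05), and LNK3 fell by 4.35 ± 0.11 with no called difference (0.47 ± 0.15, adjusted p = 0.0525). RVE8, an activator of evening genes, kept 3.55 and 4.52 FPKM at 8 h in ilp1-1 and 0.689 and 0.877 in Col-0 (difference 0.67 ± 0.18, adjusted p = 0.0199). That difference was lost without Col-0 0 h replicate 2, Col-0 8 h replicate 1, ilp1-1 0 h replicate 1 or ilp1-1 8 h replicate 2 and in a fit of the compared libraries alone (0.53 to 0.67, adjusted p up to 0.0931). PRR9, the earliest of the PRR repressors, still stood at 9.37 and 10.9 FPKM at 8 h in ilp1-1, down from 29.4 and 23.9, but at 0.952 and 0.331 in Col-0, down from 22.2 and 26.7. Its change of -1.31 ± 0.17 in ilp1-1 was the less negative by 2.66 ± 0.24 (adjusted p = 3.15e-06). RVE2, a MYB-like relative of CCA1, did not pass in ilp1-1, with 7.24 and 6.87 FPKM at 0 h and 6.79 and 4.96 at 8 h (-0.24 ± 0.22, adjusted p = 0.393). In Col-0 it rose from 1.76 and 4.16 to 39.2 and 41.2 FPKM, and the difference was the second most negative of the 8 named (-3.69 ± 0.31, adjusted p = 1.45e-06). By 16 h RVE2 reached 52.3 and 43.2 FPKM in ilp1-1.

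**Figure D3:**
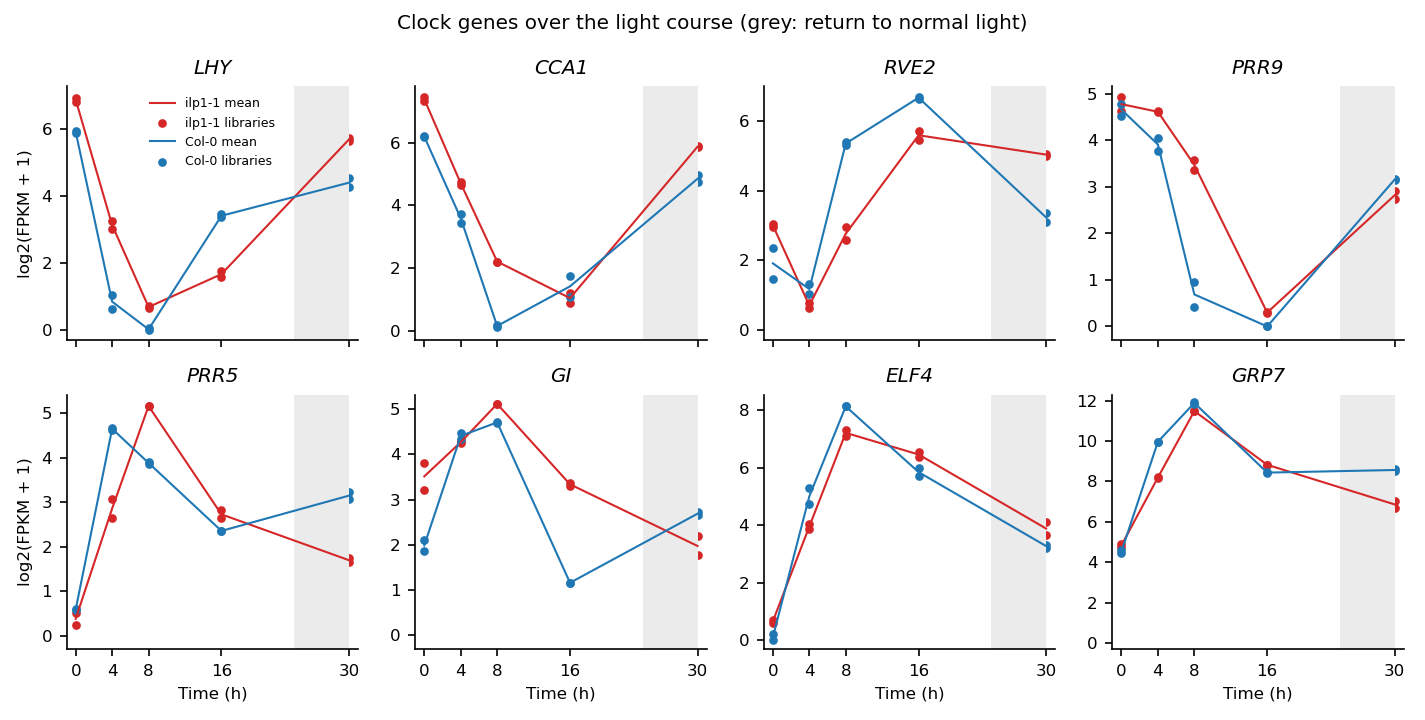
Points give log2(FPKM + 1) of each library and lines join the means of the 2 libraries at 0, 4, 8, 16 and 30 h for ilp1-1 (red) and Col-0 (blue), with grey marking the return to normal light. LHY and CCA1 fall and ELF4 and GRP7 rise by 8 h in both genotypes, while at 8 h ilp1-1 holds more PRR9 and PRR5 and less RVE2 than Col-0.

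Other genes among the 12 largest increases include a regulator of cold genes, a chaperone and proteins of defence. COR27 (AT5G42900, chromosome 5, 17197641 to 17199910), a small regulator of clock and cold genes, went from 0.301 and 0.375 to 57.9 and 50.5 FPKM (5.36 ± 0.25, adjusted p = 1.02e-10). AT1G07050 (chromosome 1, 2163575 to 2165261), a CCT motif protein, went from 0.134 and 0.277 to 62 and 59.6 (5.68 ± 0.16). The 0 h libraries of both genes were under 1 FPKM and their changes did not differ from those of Col-0 beyond the test (adjusted p = 0.694 and 0.267). DJC76, a chloroplast DnaJ protein, rose by 5.77 ± 0.16, and VSP1, a vegetative storage protein of jasmonate responses, by 5.60 ± 0.37. AT2G23910 rose by 6.10 ± 0.25 and was higher still at 16 h, with 472 and 478 FPKM against 222 and 202 at 8 h. IGMT5, an indole glucosinolate methyltransferase, rose by 5.71 ± 0.27 and AT1G56300 by 5.80 ± 0.14. DJC76, IGMT5 and AT1G56300 overlap a gene on the opposite strand, and the strand setting of the counting is not given in the sources used here, so part of their reads may belong to the partner. AT4G18422 (chromosome 4, 10176150 to 10176638), listed as an unknown protein, rose from 0 and 0.906 to 122 and 109 FPKM in ilp1-1 (6.40 ± 0.40) but from 0.121 and 0 to 5.17 and 5.51 in Col-0 (difference 3.82 ± 0.56, adjusted p = 0.000294). The difference for AT4G18422, whose 0 h levels are near 0, did not pass under other settings tried (3.32 to 3.66, adjusted p up to 0.205).

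The 12 largest decreases included genes of pigment breakdown, sugars, polyamines and growth besides LHY and CCA1. CCD4, a carotenoid-cleaving dioxygenase, fell from 59.3 and 57.6 to 1.09 and 1.04 FPKM (-4.85 ± 0.20, adjusted p = 2.94e-11), and GOLS2, a galactinol synthase of cold and drought responses, from 44.7 and 42.6 to 1.01 and 0.874 (-4.52 ± 0.28). SAMDC2, an enzyme of polyamine synthesis, fell from 502 and 439 to 22.5 and 20.4 FPKM (-4.39 ± 0.10), further than in Col-0, where it began at 160 and 146 (difference -0.84 ± 0.14, adjusted p = 0.00103). That both 8 h libraries lay below both 0 h libraries in these 3 genes was a condition of the choice of the 12. COL2, a CONSTANS-like protein, fell by 4.43 ± 0.15, MIP1A, a small B-box protein, by 4.76 ± 0.32, and GASA6, a gibberellin-regulated peptide, by 5.05 ± 0.18 on the log2 scale. COL2 and GASA6 overlap genes on the opposite strand. AT2G41250, a hydrolase of the haloacid dehalogenase family, fell by 4.98 ± 0.28, and AT5G48490 by 5.30 ± 0.31 on the log2 scale. AT5G43455, a pre-tRNA locus (chromosome 5, 17459175 to 17459247), stood at 30 and 32.8 FPKM at 0 h and was listed at 0 in both 8 h libraries, at least 10.1-fold lower with a floor of 3 reads per library. All 4 Col-0 libraries of these hours were at 0 for it.

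Light-harvesting genes fell in ilp1-1, most of them less steeply than in Col-0. Of 20 antenna genes tested, 1 was called higher and 18 lower with a median of -1.55, against 2 (LHCB4.3 and LHCB7) and 18 and a median of -2.33 in Col-0. For 15 the change was the more positive in ilp1-1 and for 1 the more negative. LHCB1.1 (AT1G29920, chromosome 1, 10474656 to 10475969), a major chlorophyll-binding protein of photosystem II, went from 4770 and 4844 FPKM to 587 and 587 in ilp1-1 (-3.03 ± 0.055, adjusted p = 7.4e-15) and from 7703 and 7940 to 236 and 234 in Col-0 (-5.05 ± 0.055). At 0 h ilp1-1 held less LHCB1.1 than Col-0 and at 8 h more, with no overlap of libraries. LHCB2.3 (AT3G27690, chromosome 3, 10255906 to 10257489) fell from 435 and 484 to 17.1 and 21.1 FPKM in ilp1-1 and from 1769 and 1762 to 9.74 and 10.6 in Col-0 (difference 2.79 ± 0.17, adjusted p = 1.14e-07). LHCB1.3, the most abundant of them at 17951 and 17987 FPKM at 0 h, fell by 2.25 ± 0.049 with no called difference (-0.02 ± 0.069, adjusted p = 0.907). LHCB4.2, a minor antenna protein, fell by 3.43 ± 0.09 (difference 1.04 ± 0.13, adjusted p = 6.03e-05). The 1 member called higher was LHCB4.3, an antenna form known to accumulate in strong light, with 45.2 and 44.7 FPKM at 0 h and 128 and 117 at 8 h (1.42 ± 0.074). LHCB1 and LHCB2 copies are close to identical, so reads may be divided unevenly among them, and LHCB1.3, LHCB2.3 and LHCB4.2 overlap genes on the opposite strand. The listed LHCB1.5 overlaps such genes too. It was at 0 FPKM in every library and is not among the genes tested, and the reason for this 0 was not tested.

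Core photosystem subunits and chlorophyll synthesis enzymes mostly fell in ilp1-1 too, with smaller median decreases than the antenna genes. Of 30 photosystem and electron transport genes, 28 were called lower and 2 higher in ilp1-1 (median -0.91; Col-0 25 and 3, median -1.07). PSAD2, a stromal subunit of photosystem I, fell from 866 and 918 to 180 and 194 FPKM (-2.25 ± 0.077, adjusted p = 3.35e-12), and PSAN fell by 2.08 ± 0.071. Both higher calls were PSBS (0.86 ± 0.068), the sensor of energy-dependent quenching, and FNR2 (0.90 ± 0.056), a ferredoxin reductase whose rise was larger in Col-0 (1.74 ± 0.056). Of 26 chlorophyll synthesis genes, 15 fell and 5 rose (median -0.51; Col-0 9 higher and 13 lower, median -0.21), and 5 had the more positive and 9 the more negative change in ilp1-1. HEMA1, the first committed enzyme, fell from 330 and 290 to 70.7 and 77.4 FPKM (-2.05 ± 0.069), and CAO, which makes chlorophyll b, from 160 and 165 to 36.7 and 38.3 (-2.08 ± 0.073). CAO reached 17.6 and 17.1 FPKM in Col-0 (difference 1.47 ± 0.10, adjusted p = 4.06e-07). LIN2, a coproporphyrinogen oxidase, was among the 9 that differed the other way (difference -0.80 ± 0.087, adjusted p = 2.1e-05), with changes of 0.07 ± 0.062 in ilp1-1 and 0.87 ± 0.062 in Col-0. In the breakdown pathway, 3 of 8 genes rose and 2 fell, with NYC1, a chlorophyll b reductase, going from 38.3 and 38.9 to 156 and 149 FPKM (1.95 ± 0.082) and SGR1, a regulator of chlorophyll loss, falling by 1.12 ± 0.14 on the log2 scale.

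Carbon fixation and plastid translation genes of the nucleus took different courses in the genotypes. Of 20 Calvin-Benson genes, 11 were called lower and 2 (GAPB and RPI3) higher in ilp1-1 (median -0.15), against 6 lower and 10 higher in Col-0 (median 0.11). In ilp1-1 12 had the more negative change and 2 the more positive. With total-read scaling or limma-voom the ilp1-1 counts became 8 lower and 5 higher. The call on GAPB was lost without ilp1-1 0 h replicate 2 and in a fit of the compared libraries alone (0.17 to 0.26, adjusted p up to 0.0695). CP12-2 (AT3G62410, chromosome 3, 23090944 to 23091580), a small protein that holds cycle enzymes inactive in the dark, fell from 503 and 612 to 304 and 266 FPKM in ilp1-1 and rose from 566 and 516 to 1136 and 1159 in Col-0. The libraries of the 2 genotypes overlapped at 0 h and were apart at 8 h (difference -2.05 ± 0.12, adjusted p = 8.14e-08). RBCS2B, a Rubisco small subunit gene, fell from 2702 and 2671 to 2104 and 1918 FPKM and rose from 3784 and 3909 to 6626 and 6600 in Col-0 (difference -1.20 ± 0.078, adjusted p = 2.04e-07). Rubisco activase (RCA) fell by 1.66 ± 0.069 in ilp1-1 and by 1.39 ± 0.069 in Col-0, and PRK, which makes the carbon acceptor, by 1.16 ± 0.05 and 0.49 ± 0.05, all on the log2 scale. Photorespiration genes gave 9 lower and 3 higher of 14 (Col-0 5 higher and 4 lower), with GGT1, a peroxisomal aminotransferase, at -1.02 ± 0.044 and GOX2, a glycolate oxidase, at -0.49 ± 0.043. With total-read scaling or limma-voom 5 photorespiration genes were called higher.

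Nuclear genes for the plastid ribosome were the clearest case of calls in opposite directions. Of 27 tested, 18 were called lower and 2 higher in ilp1-1 (median -0.27), none lower and 21 higher in Col-0 (median 0.24), and 25 had the more negative change in ilp1-1. They supply 12 of the 148 genes called lower in ilp1-1 and higher in Col-0. The changes were small: RPL6 (AT1G05190, chromosome 1, 1502251 to 1503853) went from 515 and 505 to 379 and 369 FPKM in ilp1-1 and from 516 and 518 to 611 and 561 in Col-0 (difference -0.63 ± 0.071, adjusted p = 3.04e-05). RPL17 fell by 0.42 ± 0.051 and rose in Col-0 by 0.22 ± 0.051, and PSRP3/1 fell by 0.41 ± 0.049 and rose by 0.16 ± 0.049. The Col-0 call was lost for PSRP3/1 without Col-0 0 h replicate 2 or Col-0 8 h replicate 1 and with no intensity trend (0.13 to 0.16, adjusted p up to 0.0951) and for RPL6 without Col-0 8 h replicate 1 and under other settings tried (0.12 to 0.18, adjusted p up to 0.121). Both members called higher in ilp1-1 were RPL3B (1.13 ± 0.076) and RPS16-2 (1.22 ± 0.096), which also rose in Col-0. With total-read scaling or limma-voom, 16 were called lower and 5 higher, and without ilp1-1 0 h replicate 1 the higher calls numbered 4.

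Most of the plastid-encoded transcripts tested were called higher in ilp1-1 and hardly any in Col-0. Of 133 plastid loci 107 were tested, of which 61 were called higher and 7 lower in ilp1-1 (median 1.37), 2 (PSBN and TRNI.2) higher and 10 lower in Col-0 (median -0.08), and 40 had the more positive change in ilp1-1. RBCL (ATCG00490), the large subunit of Rubisco, stood at 13.6 and 11 FPKM at 0 h and 138 and 200 at 8 h (3.66 ± 0.30, adjusted p = 6.57e-08), and at 9.12 and 11.9 and then 8.30 and 12.1 in Col-0 (difference 3.71 ± 0.43, adjusted p = 3.58e-05). PSBA, the D1 protein of photosystem II that turns over in strong light, went from 31.7 and 21.6 to 122 and 154 FPKM (difference 2.89 ± 0.45, adjusted p = 0.000497). The ilp1-1 libraries of 4 h were higher still, with 277 and 647 FPKM of RBCL and 294 and 611 of PSBA, and those of 16 h lower again, with 26.2 and 21.4 FPKM of RBCL and 19.5 and 13.2 of PSBA. PSBZ, PSBL and PSBJ, small subunits of photosystem II, differed from Col-0 by 4.96 ± 0.64, 4.19 ± 0.83 and 4.06 ± 0.64 in their change. The tRNA loci TRNS.2, TRNL.1 and TRNS.3 differed by 5.22 ± 1.21, 4.63 ± 1.46 and 4.12 ± 0.77, the last listed at 0 reads in both 0 h libraries and at least 3.16-fold higher at 8 h against a floor of 3 reads per library. The difference was lost for TRNL.1 without any 1 of the 8 libraries and under other settings tried (4.23 to 5.04, adjusted p up to 0.274), for TRNS.2 under other settings tried (6.02 to 6.14, adjusted p up to 0.266), for PSBL under other settings tried (4.15 to 4.48, adjusted p up to 0.282), for PSBJ in limma-voom (4.29, adjusted p = 0.116) and for PSBZ in limma-voom (5.51, adjusted p = 0.217). TRNV.1 rose from 27 and 36.6 to 435 and 460 FPKM (3.79 ± 0.27), and PSAA, a core protein of photosystem I, from 3.12 and 2.24 to 21.8 and 31.6 (2.90 ± 0.35). RPL32, a plastid-encoded ribosomal protein, fell from 286 and 261 to 129 and 110 (-1.20 ± 0.15). The count of 7 lower calls was 3 in limma-voom and without ilp1-1 0 h replicate 2 or ilp1-1 8 h replicate 2. Most plastid transcripts carry no stable poly-A tail, so these values are the part that poly-A selection retained, and whether that part differed between libraries was not tested.

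**Figure D4:**
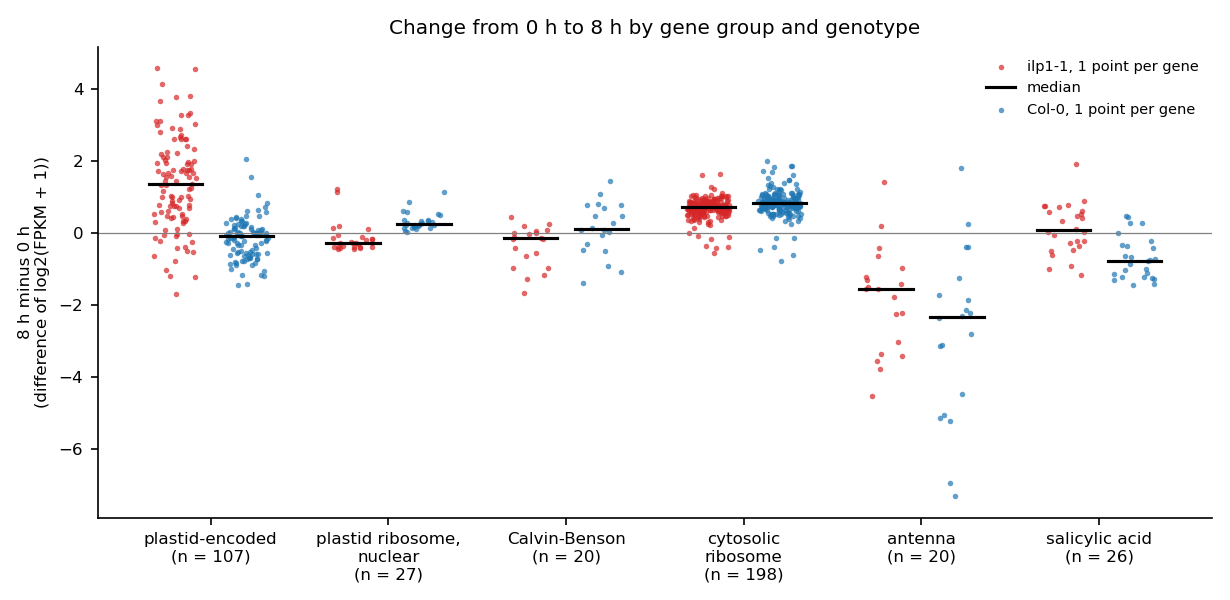
Each point is the change of 1 gene from 0 h to 8 h as a difference of log2(FPKM + 1) in ilp1-1 (red) or Col-0 (blue), sideways spread is for display only, and bars are medians over the genes. The plastid-encoded median is 1.37 in ilp1-1 and -0.08 in Col-0, and that of the nuclear plastid ribosome genes -0.27 and 0.24.

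Among protective genes the early light-induced proteins rose and several carotenoid enzymes fell. Of 21 photoprotection genes, 5 were called higher and 12 lower (median -0.39; Col-0 4 and 13, median -0.73). The higher calls were ELIP1, ELIP2, VDE, VTE1 and VTE2. That on VTE1 was lost without ilp1-1 0 h replicate 2 or ilp1-1 8 h replicate 1 or 2 and under other settings tried (0.18 to 0.41, adjusted p up to 0.396). ELIP1 (AT3G22840, chromosome 3, 8084405 to 8085669), a thylakoid protein induced by strong light, rose from 230 and 179 to 2229 and 2231 FPKM in ilp1-1 (3.45 ± 0.13, adjusted p = 1.12e-11) and from 47.1 and 40.6 to 326 and 252 in Col-0. ELIP2 rose from 66.4 and 45.2 to 212 and 210 FPKM in ilp1-1 and fell from 14.6 and 17 to 5.18 and 3.75 in Col-0 (difference 3.55 ± 0.29, adjusted p = 1.43e-06). All ilp1-1 libraries of both ELIP genes at 0 h and 8 h were above the Col-0 libraries of the same hour. BCH2, a carotene hydroxylase, fell by 2.53 ± 0.15, ZEP, the zeaxanthin epoxidase, by 1.23 ± 0.096 and LCYB, a lycopene cyclase, by 1.28 ± 0.089 on the log2 scale. ZEP fell further in Col-0 (difference 1.36 ± 0.14, adjusted p = 8.46e-06). VTE5 of tocopherol synthesis fell by 1.87 ± 0.13 and VTE2 rose by 1.24 ± 0.12.

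Antioxidant genes were divided, with 11 of 28 higher and 10 lower (Col-0 17 higher and 8 lower), and 7 had the more positive and 6 the more negative change in ilp1-1. GPX7, a chloroplast glutathione peroxidase, rose from 9.66 and 9.31 to 74.5 and 70.5 FPKM in ilp1-1 and from 5.83 and 6.72 to 13.5 and 10 in Col-0 (difference 2.01 ± 0.18, adjusted p = 2.5e-06). DHAR1, which recycles ascorbate, rose from 324 and 274 to 1330 and 1349 (2.17 ± 0.13). VTC2, the controlling enzyme of ascorbate synthesis, fell from 1138 and 974 to 330 and 364 (-1.60 ± 0.086). CAT2, the leaf peroxisomal catalase, fell from 769 and 674 to 303 and 308 FPKM in ilp1-1 and from 630 and 625 to 99.2 and 102 in Col-0 (difference 1.39 ± 0.10, adjusted p = 8e-07). PRXQ, a peroxiredoxin of the chloroplast, changed by 0.12 ± 0.061 in ilp1-1 and by 0.95 ± 0.061 in Col-0 (difference -0.83 ± 0.086, adjusted p = 1.25e-05). FSD2, a plastid superoxide dismutase, rose less in ilp1-1 (difference -1.23 ± 0.19, adjusted p = 0.000536). Without ilp1-1 8 h replicate 2 the antioxidant genes called lower numbered 6.

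Heat shock genes fell in ilp1-1 from a high level at 0 h. Of 30 tested, 23 were called lower and 3 higher (median -1.31), against 12 and 3 in Col-0 (median -0.32), and 15 had the more negative change in ilp1-1. HSP17.6II (AT5G12020, chromosome 5, 3882231 to 3883111), a cytosolic small chaperone, stood at 58.2 and 44.8 FPKM at 0 h and 1.73 and 3.38 at 8 h in ilp1-1 (-3.91 ± 0.26, adjusted p = 5.46e-09), and at 1.28 and 2.20 and then 0.638 and 0.483 in Col-0 (difference -3.12 ± 0.37, adjusted p = 4.35e-05). HSP17.6A went from 34.6 and 24 to 2.05 and 1.69 FPKM (difference -3.06 ± 0.54, adjusted p = 0.00134) and HSP17.6C from 11.8 and 9.83 to 0.482 and 0.696 (difference -2.90 ± 0.37, adjusted p = 7.98e-05). In these 3 genes the 0 h libraries of ilp1-1 stood above all other 6 libraries of 0 h and 8 h. They were named as members of the 8 lowest differences between genotypes, a choice that favours such a separation. The difference was lost for HSP17.6A under other settings tried (-3.25 to -3.21, adjusted p up to 0.167) and for HSP17.6C with a pseudocount of 0.1 (-4.30, adjusted p = 0.0669). HSP70-4, an inducible cytosolic chaperone, fell from 126 and 99.7 to 11.4 and 10.3 FPKM, and from 15 and 10.4 to 5.61 and 5.94 in Col-0 (difference -2.27 ± 0.26, adjusted p = 3.29e-05). HSFA2, a heat-inducible transcription factor, fell by 1.75 ± 0.23 and HSP101, a disaggregase, by 1.93 ± 0.17 on the log2 scale. MBF1C, a heat-stress coactivator, fell by 1.58 ± 0.13 with no called difference (-0.15 ± 0.19, adjusted p = 0.673). The 3 members called higher were DREB2A (2.11 ± 0.28), a drought and heat factor, BAG6 (1.43 ± 0.22), a cochaperone, and CLPB3 (0.35 ± 0.076), the plastid disaggregase, which fell in Col-0 (-0.54 ± 0.076). HSP17.6 copies are similar in sequence, so reads may be divided among them.

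More genes that respond to mitochondrial dysfunction fell than rose. Of 19 tested, 11 were called lower and 2 (NDB4 and GSTU25) higher in ilp1-1 (median -0.79), against 9 and 1 in Col-0 (median -0.34), and 10 had the more negative change in ilp1-1 and 4 the more positive. AOX1A (AT3G22370, chromosome 3, 7906521 to 7908746), the alternative oxidase, fell from 248 and 217 to 81.1 and 84.7 FPKM and stood at 24.6 and 23.9 and then 18.8 and 18.9 in Col-0 (difference -1.13 ± 0.15, adjusted p = 0.000118). At 8 h both ilp1-1 libraries were still above both Col-0 libraries. NAC013, a transcription factor of this response, fell from 115 and 98.2 to 19.2 and 24.5 FPKM (difference -1.93 ± 0.21, adjusted p = 1.64e-05). AT2G41730 (chromosome 2, 17409370 to 17410334), listed in the files as a calcium-binding site protein, fell from 291 and 329 to 27.4 and 33.7 FPKM, with 3.57 and 5.82 and then 5.39 and 4.26 in Col-0 (difference -3.36 ± 0.37, adjusted p = 2.55e-05). SOT12, a sulfotransferase, fell by 2.55 ± 0.19 on the log2 scale. The higher call on GSTU25 was lost without ilp1-1 8 h replicate 1 (0.92, adjusted p = 0.0565) and that on NDB4 with a pseudocount of 0.1 (1.18, adjusted p = 0.133). Outside the list, AT4G12735 fell from 172 and 203 to 13.1 and 18.4 FPKM with 0.687 and 1.42 and then 0.406 and 1.09 in Col-0 (difference -3.27 ± 0.78, adjusted p = 0.0107). That difference was lost under other settings tried (-3.10 to -3.09, adjusted p up to 0.221). The snoRNA locus AT5G00755 did not pass in ilp1-1 (9.64 and 13.9 and then 10.5 and 7.56 FPKM) and rose in Col-0 (difference -3.25 ± 0.64, adjusted p = 0.00289).

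**Figure D5:**
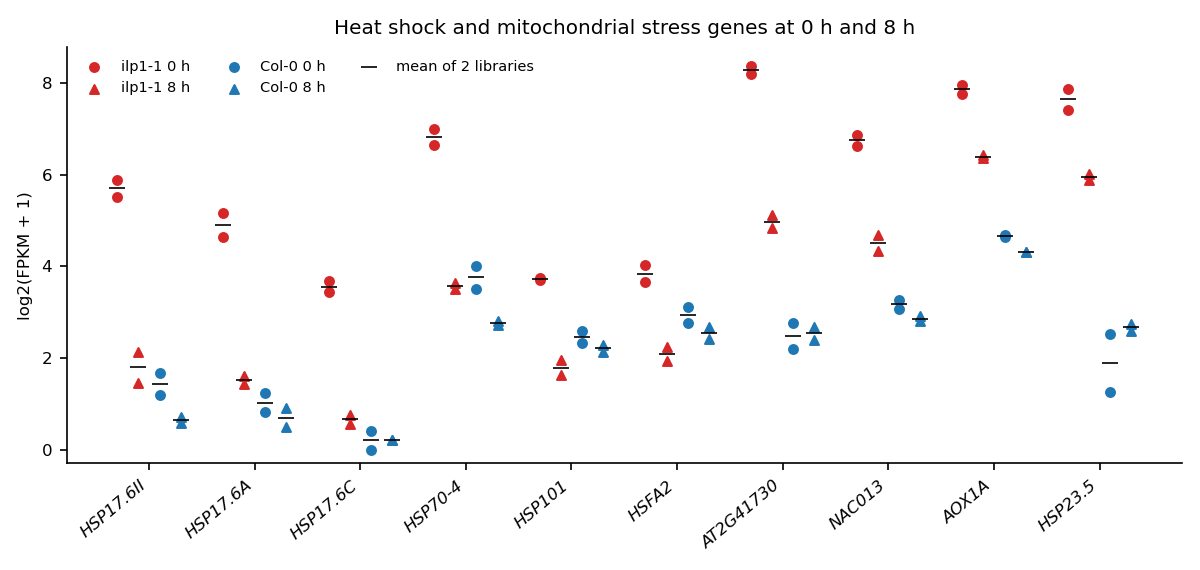
Points give log2(FPKM + 1) of each library at 0 h (circles) and 8 h (triangles) for ilp1-1 (red) and Col-0 (blue), with black bars at the mean of the 2 libraries. The ilp1-1 libraries of 0 h are the highest of each gene, and by 8 h HSP17.6II stands at 1.73 and 3.38 FPKM while AT2G41730 is still at 27.4 and 33.7. Both of these genes were among the 8 lowest differences between genotypes, a choice that favours high 0 h libraries of ilp1-1.

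Chaperones of the endoplasmic reticulum went the other way. Of 15 tested, 10 were called higher and 1 lower (median 1.02; Col-0 10 and 4, median 0.99). BIP2, the luminal HSP70, rose from 55 and 55.9 to 151 and 170 FPKM (1.51 ± 0.084, adjusted p = 6.96e-10), and CRT1, a calreticulin, from 73.6 and 76 to 197 and 210 (1.43 ± 0.059). PDIL2-1, a disulfide isomerase, rose by 1.10 ± 0.074. The 1 lower call was BZIP60, a transcription factor of the unfolded protein response, which fell from 155 and 167 to 51.8 and 48.7 FPKM in ilp1-1 and from 43.8 and 42.5 to 18.6 and 22.6 in Col-0 (difference -0.62 ± 0.13, adjusted p = 0.00542).

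Flavonoid and anthocyanin genes rose together. Of 29 tested, 26 were called higher and 1 lower (median 2.11), and in Col-0 24 and 2 (median 1.85). TT4, the chalcone synthase at the entry of the pathway, rose from 627 and 549 to 2800 and 2598 FPKM (2.20 ± 0.096, adjusted p = 4.67e-11). The regulators MYB111 and MYB12 rose from 2.19 and 2.77 to 47.9 and 41.9 and from 0.573 and 0.224 to 11.7 and 11.7 FPKM. Both regulators stood below 3 FPKM in every 0 h library. LDOX, an anthocyanidin synthase late in the pathway, rose from 34.2 and 23.7 to 460 and 392 FPKM, and GSTF12, needed to move anthocyanins to the vacuole, from 33.1 and 21.3 to 463 and 396. For 7 genes the change was the more positive in ilp1-1 and for none the more negative. They included GSTF12 (difference 1.35 ± 0.23, adjusted p = 0.00101), DFR (1.15 ± 0.28, adjusted p = 0.013) and MYB12 (1.24 ± 0.20, adjusted p = 0.000803). The difference was lost for DFR without Col-0 0 h replicate 2, Col-0 8 h replicate 1, ilp1-1 0 h replicate 2 or ilp1-1 8 h replicate 1 (0.84 to 1.03, adjusted p up to 0.0616) and for MYB12 under other settings tried (0.92 to 1.13, adjusted p up to 0.441). MYBL2 (AT1G71030, chromosome 1, 26795052 to 26796532), a repressor of this pathway, rose from 13.8 and 16.9 to 22.9 and 21.4 FPKM in ilp1-1 and fell from 48.8 and 50.8 to 10.2 and 10.7 in Col-0 (difference 2.66 ± 0.21, adjusted p = 1.14e-06). The rise of MYBL2 in ilp1-1 was lost without ilp1-1 0 h replicate 1 or ilp1-1 8 h replicate 1 (0.37 to 0.46, adjusted p up to 0.114). The lower call was TTG1 (-0.86 ± 0.12), a WD40 cofactor of the activating complex.

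Starch enzymes rose on the side of synthesis and on that of breakdown. Of 16 starch synthesis genes, 12 were called higher and 1 (GBSS1) lower (median 0.74), and of 21 breakdown genes 17 and 2 (median 1.30; Col-0 17 and 2, median 1.95). In Col-0 10 synthesis genes were called higher and 3 lower. Of the breakdown genes 4 had the more positive and 5 the more negative change in ilp1-1. ISA3 (AT4G09020, chromosome 4, 5783909 to 5789100), a debranching enzyme, rose from 3.71 and 3.06 to 196 and 182 FPKM (5.44 ± 0.14, adjusted p = 1.26e-13), and PHS2 (AT3G46970, chromosome 3, 17301394 to 17306633), the cytosolic glucan phosphorylase, from 12.6 and 10 to 360 and 351 (4.86 ± 0.12). DPE2, which handles maltose in the cytosol, rose from 15.5 and 15.5 to 190 and 184 FPKM. In these 3 genes the rise was larger than in Col-0, by 0.85 ± 0.20 (adjusted p = 0.00854), 1.54 ± 0.17 (adjusted p = 1.81e-05) and 1.42 ± 0.12 (adjusted p = 1.51e-06). The difference for ISA3 was lost in a fit of the compared libraries alone (0.85, adjusted p = 0.0608). BAM3, the main leaf beta-amylase, began at 380 and 340 FPKM in ilp1-1 and 120 and 113 in Col-0, and its rise was smaller in ilp1-1 (difference -1.04 ± 0.082, adjusted p = 1.07e-06). The rise was smaller in ilp1-1 also for PWD, a kinase that primes starch for breakdown (difference -1.82 ± 0.14, adjusted p = 8.72e-07), and DPE1, a plastid glucan transferase (difference -1.18 ± 0.14, adjusted p = 5.8e-05). The lower calls were BAM1 and BAM9, a noncatalytic family member that fell by 3.62 ± 0.15 on the log2 scale. SBE2.1, a branching enzyme, rose from 8.40 and 7.15 to 56.4 and 54.8 FPKM and APL3, a subunit of the controlling step of starch synthesis, from 42.1 and 39.3 to 124 and 119. PHS2 overlaps a gene on its own strand.

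Sugar transporters and sugar signals were mixed. Of 24 transport and sucrose genes, 11 rose and 8 fell (Col-0 6 higher and 8 lower), and 6 had the more positive and 4 the more negative change in ilp1-1. GPT2, a glucose phosphate transporter of plastids induced by strong light, rose from 25.8 and 15.5 to 370 and 387 FPKM in ilp1-1 and from 4.13 and 6.64 to 52.4 and 42.9 in Col-0 (difference 1.22 ± 0.29, adjusted p = 0.0101). That difference was lost without Col-0 0 h replicate 2 and in a fit of the compared libraries alone (0.93 to 1.22, adjusted p up to 0.0623). At 4 h GPT2 stood at 132 and 123 FPKM in Col-0, above the 8 h libraries there, and at 370 and 417 in ilp1-1. APE2, the triose phosphate exporter, fell by 1.41 ± 0.062. STP13, a hexose importer, rose from 3.33 and 5.25 to 23.7 and 24.8 FPKM in ilp1-1, with 8.09 and 8.92 at 4 h. In Col-0 it stood at 8.06 and 9.33 at 0 h, 24.9 and 19.6 at 4 h and 9.51 and 12.5 at 8 h. The change of STP13 from 0 h to 8 h did not pass in Col-0 (difference 1.98 ± 0.31, adjusted p = 0.000546). SWEET12, a sucrose exporter of the phloem, rose from 5.11 and 4.94 to 17.6 and 19.5 in ilp1-1 and from 1.72 and 1.74 to 28.7 and 30.9 in Col-0 (difference -1.80 ± 0.24, adjusted p = 0.000133). Among 8 trehalose phosphate synthase genes 4 fell (TPS6, TPS7, TPS8 and TPS10) and 1 rose (TPS5), against 6 and 1 in Col-0. The call on TPS10 was lost without ilp1-1 0 h replicate 2 or ilp1-1 8 h replicate 1 or 2 and in a fit of the compared libraries alone (-0.52 to -0.34, adjusted p up to 0.224). TPS8 fell from 4.51 and 4.97 to 0.389 and 0.328 FPKM and TPS11 did not pass, with 0.942 and 1.23 and then 0.786 and 1.12, while in Col-0 TPS11 fell from 7.75 and 9.52 to 0.835 and 0.963 FPKM (difference 2.24 ± 0.28, adjusted p = 7.24e-05). Of 15 carbon starvation genes 7 fell and 2 rose (DRM1 and IVD; Col-0 1 higher and 8 lower), with BZIP63, a low-energy transcription factor, at -2.62 ± 0.18. The call on IVD was lost without ilp1-1 0 h replicate 2 (0.33, adjusted p = 0.0604).

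More nitrogen genes fell than rose, and phosphate starvation genes rose. Of 27 nitrogen genes 14 fell and 8 rose (median -0.28; Col-0 16 and 6). GLN1.2, a cytosolic glutamine synthetase, fell from 279 and 271 to 65.1 and 66.6 FPKM (-2.05 ± 0.064, adjusted p = 1.06e-12). Its relative GLN1.1 rose from 32.6 and 50 to 162 and 176 in ilp1-1 and from 49 and 53.7 to 61.5 and 74.4 in Col-0 (difference 1.65 ± 0.21, adjusted p = 9.38e-05). The Col-0 call on GLN1.1 was lost without Col-0 0 h replicate 1 or 2 or Col-0 8 h replicate 2 and under other settings tried (0.26 to 0.46, adjusted p up to 0.279). NRT1.7, which reclaims nitrate from old leaves, rose by 2.25 ± 0.11, and LBD37, a repressor of nitrogen genes, fell by 1.69 ± 0.099. Of 16 phosphate starvation genes 11 rose and none fell (median 1.11; Col-0 10 and none), with MGD3, a galactolipid synthase, going from 3.43 and 3.54 to 18.5 and 17.7 FPKM (2.09 ± 0.21).

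Jasmonate genes rose in ilp1-1. Of 24 tested, 18 were called higher and none lower (median 1.51), against 13 higher and none lower in Col-0 (median 0.74), and the difference passed for 2 genes, 1 in each direction. AOC2, an allene oxide cyclase of jasmonate synthesis, rose from 51.5 and 40.8 to 409 and 449 FPKM (3.20 ± 0.11, adjusted p = 5.2e-12), and OPR3, a later enzyme, from 27.4 and 25.5 to 128 and 140 (2.30 ± 0.14). VSP2, a storage protein of this response, rose from 29.8 and 13.5 to 297 and 331 FPKM. The listed MYC2, which overlaps a gene on the opposite strand, was at 0 FPKM in every library and is not among the genes tested. The 2 genes that differed were LOX2, a lipoxygenase (-0.73 ± 0.20, adjusted p = 0.024), and AOC3 (1.55 ± 0.29, adjusted p = 0.00192). The difference for LOX2 was lost without Col-0 0 h replicate 1, Col-0 8 h replicate 1, ilp1-1 0 h replicate 1 or ilp1-1 8 h replicate 1 and under other settings tried (-0.73 to -0.47, adjusted p up to 0.107).

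Salicylic acid and WRKY genes were often called lower in Col-0 and seldom in ilp1-1. Of 26 salicylic acid and immunity genes, 5 were called higher and 4 lower in ilp1-1 (median 0.07), none higher and 14 lower in Col-0 (median -0.77), and 9 had the more positive change in ilp1-1. PAD3, the last enzyme of camalexin synthesis, rose from 4.71 and 3.89 to 22.9 and 15.5 FPKM in ilp1-1 and did not pass in Col-0 (7.09 and 3.50 and then 2.29 and 3.47; difference 2.56 ± 0.56, adjusted p = 0.00594). The other higher calls were EDS5, WRKY46, WRKY54 and GRX480, and the lower ones EDS1, PAD4, NPR1 and WRKY70. Of these calls that on EDS5 was lost without ilp1-1 8 h replicate 1 (0.54, adjusted p = 0.0632), that on GRX480 without ilp1-1 0 h replicate 1 or ilp1-1 8 h replicate 1 or 2 and under other settings tried (0.21 to 1.05, adjusted p up to 0.631), that on EDS1 without ilp1-1 0 h replicate 2 or ilp1-1 8 h replicate 2 and in a fit of the compared libraries alone (-0.50 to -0.35, adjusted p up to 0.136) and that on NPR1 without ilp1-1 0 h replicate 2 or ilp1-1 8 h replicate 2 and in a fit of the compared libraries alone (-0.46 to -0.25, adjusted p up to 0.189). PAD4, an immune regulator, fell from 15.3 and 21 to 7.29 and 7.62 FPKM (-1.16 ± 0.15), with no called difference (adjusted p = 0.743). The count of 5 higher calls became 3 without ilp1-1 0 h replicate 1, 9 without ilp1-1 0 h replicate 2 and 2 without ilp1-1 8 h replicate 1, and that of 4 lower calls became 2 without ilp1-1 0 h replicate 2 or ilp1-1 8 h replicate 2. Of 48 WRKY genes tested 9 rose and 8 fell in ilp1-1, 2 rose and 22 fell in Col-0, and 10 had the more positive change in ilp1-1. WRKY46 rose from 9.49 and 14.7 to 17.3 and 18.9 FPKM and fell in Col-0 from 10.3 and 8.59 to 4.00 and 2.99 (difference 1.80 ± 0.29, adjusted p = 0.000738). The rise of WRKY46 in ilp1-1 was lost without ilp1-1 0 h replicate 1 or ilp1-1 8 h replicate 1 or 2 and under other settings tried (0.29 to 0.64, adjusted p up to 0.35). WRKY44, a regulator of seed coat and hair pigmentation and shape, rose from 2.28 and 1.60 to 13.2 and 12.3 FPKM. In limma-voom 14 WRKY genes were called higher in ilp1-1, and without ilp1-1 0 h replicate 1 the count was 5. In a fit of the compared libraries alone 4 WRKY genes were called lower, and without ilp1-1 0 h replicate 2 the count was 5. Of 51 NAC genes 5 rose and 12 fell in ilp1-1, none rose and 25 fell in Col-0, and 6 had the more positive and 1 the more negative change in ilp1-1, with NAC029, a senescence factor, going from 17.7 and 26.9 to 0.173 and 0.188 FPKM (-4.27 ± 0.25). The count of NAC genes called higher was 1 without ilp1-1 0 h replicate 1, 2 without ilp1-1 8 h replicate 1, 3 without ilp1-1 8 h replicate 2 and 8 with total-read scaling.

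Cold and drought genes went both ways. Of 30 tested 7 rose and 16 fell (Col-0 8 higher and 17 lower), and 3 had the more positive and 5 the more negative change in ilp1-1. CBF3, a cold-response factor gated by the clock, rose from 0.268 and 0.382 to 14.7 and 15.5 FPKM in ilp1-1 and from 0.854 and 0.673 to 6.97 and 7.29 in Col-0 (difference 1.40 ± 0.19, adjusted p = 0.000175). COR15A, a cold-induced chloroplast protein, rose from 69 and 71.6 to 985 and 853. ABF3, a factor of abscisic acid responses, fell from 24.9 and 23.3 to 4.56 and 5.39 FPKM (-2.07 ± 0.13), and RD20, a drought-induced lipid droplet protein, from 270 and 239 to 29.5 and 28 (-3.10 ± 0.20).

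Genes of auxin response, light signalling and cell expansion were more often called lower than higher. Of 27 SAUR genes tested 20 were called lower and 3 higher (SAUR41, SAUR72 and PUB16), with a median of -1.79. PUB16 bears that name in the authors' data and was listed only through a SAUR symbol in RefSeq, so it may not belong to the family. Of 23 Aux/IAA genes 14 were called lower and 2 higher (IAA9 and IAA11), with a median of -0.81. In Col-0 the counts were 22 and 1 for SAUR genes, 15 and 2 for Aux/IAA genes, 12 and 2 for light signalling genes, 15 and 2 for XTH genes and 6 and 5 for expansin A genes. SAUR62, of a family of small proteins that promote cell expansion, fell from 23.2 and 29 to 2.17 and 2.54 FPKM (-3.01 ± 0.17, adjusted p = 9.01e-10), and IAA1, an auxin-induced repressor, from 31.1 and 36.5 to 4.74 and 3.73 (-2.73 ± 0.15). PIF5 and PIF4, growth-promoting light signalling factors, fell by 2.26 ± 0.12 and 1.68 ± 0.15 on the log2 scale, and 11 of 18 light signalling genes fell and 1, the blue-light receptor CRY2, rose. The call on CRY2 was lost without any 1 of the 4 libraries and in a fit of the compared libraries alone (0.23 to 0.31, adjusted p up to 0.149), that on IAA9 without ilp1-1 0 h replicate 2 or ilp1-1 8 h replicate 1 or 2 and under other settings tried (0.15 to 0.19, adjusted p up to 0.125), that on SAUR41 without ilp1-1 0 h replicate 1 and in a fit of the compared libraries alone (0.45 to 0.79, adjusted p up to 0.0666) and that on SAUR72 without ilp1-1 0 h replicate 1 or 2 or ilp1-1 8 h replicate 1 and in a fit of the compared libraries alone (0.35 to 0.57, adjusted p up to 0.217). XTH4, a cell wall remodelling enzyme, fell from 195 and 203 to 29.6 and 31.2 FPKM, one of 10 of 22 XTH genes called lower against 3 called higher (XTH23, XTH28 and XTH31). EXPA11, a wall-loosening expansin, fell from 42 and 42.2 to 2.75 and 3.10 FPKM in ilp1-1 and from 33.9 and 31.3 to 16 and 15.1 in Col-0 (difference -2.44 ± 0.24, adjusted p = 9.53e-06), one of 7 of 13 expansin A genes called lower against 4 higher (EXPA4, EXPA9, EXPA13 and ATEXPA10). The call on EXPA13 was lost without ilp1-1 0 h replicate 1 or ilp1-1 8 h replicate 1 (0.42, adjusted p up to 0.0661) and that on ATEXPA10 without ilp1-1 0 h replicate 2 (0.45, adjusted p = 0.0773). SAUR copies in clusters are similar in sequence, so reads may be divided among them.

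Cytosolic ribosomal protein genes rose almost without exception. Of 198 tested 186 were called higher and 1 (RPL18AA) lower in ilp1-1 (median 0.71), and 185 and 1 in Col-0 (median 0.83). RPL4D rose from 261 and 267 to 506 and 528 FPKM (0.97 ± 0.055, adjusted p = 8.45e-10) and RPS19C from 222 and 232 to 446 and 447 (0.97 ± 0.055). In both genes the libraries of an hour lay close together and those of the 2 hours far apart. The change was the more negative in ilp1-1 for 17 genes and the more positive for 1 (RPS2B). Of 7 cell division genes 1 rose and none fell (median -0.20), against 4 and none in Col-0 (median 0.60). CYCB1;2, a mitotic cyclin, changed by 0.55 ± 0.16. That call was lost without ilp1-1 0 h replicate 2 or ilp1-1 8 h replicate 1 (0.46, adjusted p up to 0.0926). The difference between genotypes passed for CDKB2;1, a mitotic kinase (-0.94 ± 0.27, adjusted p = 0.0322). That difference was lost without Col-0 0 h replicate 1 or 2, Col-0 8 h replicate 2, ilp1-1 0 h replicate 1 or ilp1-1 8 h replicate 1 or 2 and with no filter on low values (-0.98 to -0.81, adjusted p up to 0.12).

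Splicing genes, to whose pathway ILP1 belongs, were more often called higher than lower. Of 37 tested 14 were called higher and 3 lower (median 0.20), and in Col-0 17 and 1. RS40 and RS31A, SR proteins that guide splice site choice, rose from 15.2 and 15 to 27.7 and 29 and from 4.23 and 3.43 to 8.34 and 10.1 FPKM. PRL2, a relative of the spliceosome subunit PRL1, rose by 1.43 ± 0.15 and SCL30, an SR-like protein, by 0.40 ± 0.064. The 3 lower calls were ILP1, SKIP (-0.32 ± 0.076), a splicing factor that also acts on clock genes, and SR45A (-0.66 ± 0.12). The difference between genotypes passed for RS40 (0.49 ± 0.13, adjusted p = 0.0163), RS41 (0.50 ± 0.14, adjusted p = 0.0298) and U2AF65A (-0.46 ± 0.14, adjusted p = 0.0363). These differences were lost for RS40 without Col-0 0 h replicate 2 or ilp1-1 8 h replicate 2 and in a fit of the compared libraries alone (0.34 to 0.49, adjusted p up to 0.083), for RS41 without Col-0 0 h replicate 1 or 2, Col-0 8 h replicate 1 or 2, ilp1-1 0 h replicate 2 or ilp1-1 8 h replicate 2 and with no intensity trend (0.40 to 0.55, adjusted p up to 0.115) and for U2AF65A without Col-0 0 h replicate 1, Col-0 8 h replicate 1 or 2, ilp1-1 0 h replicate 1 or ilp1-1 8 h replicate 1 or 2 and under other settings tried (-0.52 to -0.33, adjusted p up to 0.157).

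Glucosinolate genes were split, with 6 of 15 higher and 5 lower (Col-0 6 higher and 5 lower). MAM1, a chain elongation enzyme of the methionine-derived branch, rose from 101 and 83 to 200 and 199 FPKM (1.11 ± 0.09). MYB34, a regulator of the indole branch, fell from 27.6 and 24.1 to 7.98 and 8.96 (-1.50 ± 0.14), and CYP83B1, an enzyme of that branch, by 0.82 ± 0.076 on the log2 scale.

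Among the listed markers of epidermis, vasculature, guard cells and meristem only those of the epidermis moved as a set. Antenna genes and RCA, which mark mesophyll cells, mostly fell too and are given above. Over all genes 23.2% were called lower and 23.8% higher in ilp1-1. The few calls on vasculature, guard cell and meristem markers do not stand apart from those shares. All 4 epidermis markers fell in ilp1-1, with a summed level of 230 and 222 FPKM at 0 h and 85.6 and 84.5 at 8 h, and all 4 fell in Col-0. CER1, a wax synthesis enzyme, fell from 43.3 and 40.5 to 10.4 and 7.25 FPKM (-2.15 ± 0.15), and PDF1, an epidermal surface protein, from 89.7 and 85.3 to 29.5 and 33.4 (-1.45 ± 0.19). Of 9 vasculature markers 2 fell (SUC2 and SULTR2;1) and none rose, with a summed level of 134 and 115 FPKM at 0 h and 80.1 and 83.0 at 8 h. SUC2, the phloem sucrose loader, fell from 51.4 and 45.3 to 23.2 and 26.3 FPKM and in Col-0 it did not pass (40.2 and 44.2 and then 38.4 and 45.5; difference -0.93 ± 0.27, adjusted p = 0.0353). That difference was lost without Col-0 0 h replicate 1 or 2, Col-0 8 h replicate 2, ilp1-1 0 h replicate 1 or ilp1-1 8 h replicate 1 or 2 and under other settings tried (-1.01 to -0.81, adjusted p up to 0.125). Guard cell markers summed to 29.1 and 21.6 FPKM at 0 h and 30.7 and 29.4 at 8 h, with 1 of 4 called higher (KAT1, 0.57 ± 0.17). The call on KAT1 was lost without ilp1-1 0 h replicate 2 or ilp1-1 8 h replicate 2 (0.47 to 0.55, adjusted p up to 0.0893). Of 7 meristem and flower markers 3 were tested and AG fell (-0.73 ± 0.22). That call was lost without ilp1-1 0 h replicate 2 or ilp1-1 8 h replicate 1 and with a pseudocount of 0.1 (-1.20 to -0.56, adjusted p up to 0.112). Without ilp1-1 0 h replicate 1 the markers called lower numbered 3. Their summed level was 3.16 and 8.26 FPKM at 0 h and 2.32 and 2.45 at 8 h. The part of cell type shares in the results above was not tested.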

How the data were processed

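Poly-A RNA of whole leaves was sequenced from dUTP libraries, per the labels' protocols, 2 libraries per genotype and hour. The submitters' processing notes name TAIR10, featureCounts 1.5.0-p3 and HISAT2 2.0.5, without options, strand setting or annotation version. The authors deposited FPKM values for 33104 genes, and FPKM times gene length gave whole reads (recovered share 100% within 0.001 reads).

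FPKM were tested as log2(FPKM + 1), which understates the change of low genes, with limma 3.58.1 in R 4.3.3: 10 group means over all 20 libraries, a spread that follows the mean level (residual df 10), genes with at least 1 FPKM in at least 2 libraries (19311), Benjamini-Hochberg adjustment and a threshold of 0.05. Tables were made in Python 3.11.15 with pandas 2.3.3 and numpy 2.4.6, and figures with matplotlib 3.10.9. On simulated data for ilp1-1 8 h against 0 h with 19311 genes the test recovered 79 of 100 genes changed 2-fold and 31 of 100 changed 1.5-fold, with 10 unchanged genes called. The simulation gave every gene the same dispersion (spread beyond counting error) of 0.01 and changed far fewer genes than were called here. Its counts therefore need not hold for these libraries. Alternatives were a pseudocount of 0.1, no filter, total-read scaling, limma-voom on the recovered reads, the compared libraries alone, no trend, a replicate block and leaving out each library.

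The genes named are ILP1, the 12 highest and 12 lowest changes, and the 8 highest and 8 lowest differences between genotypes. In each list up to 4 members by smallest adjusted p were named too. The 12 and the 8 were taken among called genes with a mean of at least 5 FPKM in 1 of the groups compared. For the 12, both libraries of one hour also had to lie above both of the other. Further list members were chosen after their values were seen. The lists, and the comparison itself, were chosen with earlier results of these data known.

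RefSeq TAIR10.1 gave the promoter windows, since 99.95% of 32536 nuclear genes had the same start and end as in the files. Replicate numbers were not used to pair the libraries in the main test, and the closing section gives a fit with them as a block. Besides those pointed out in the text, genes that overlap a neighbour and may share reads with it include ABF3, APE2, BAM3, BAM9, BCH2, CAO, CAT2, CBF3, CDKB2;1, CLPB3, DREB2A, EDS5, ELF3, FKF1, GPX7, GSTF12, HSP101, ILP1, LCYB, LNK1, LNK2, LNK3, LNK4, LUX, MBF1C, NAC013, NPR1, PDIL2-1, PRK, PSAD2, PSAN, PSRP3/1, RCA, RPI3, RPL3B, RS31A, RS40, RS41, SBE2.1, SKIP, TPS5, TPS6, TT4 and VDE. Depth limits the lowest genes, and a floor of 3 reads per library stands for 0 reads in any fold given for them, covering counting error only.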

Additional observations from a re-analysis of the deposited data

Results flagged for a closer look

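The difference between ilp1-1 and Col-0 in the change from 0 h to 8 h was itself tested for every gene, as a difference of 2 log2 changes, and the named genes that passed (limma adjusted p under 0.05, as did 13.3% of all 19311 genes) are given here by group. A positive value means the more positive change in ilp1-1. Several of the genes were named because they differed. No explanation was tested for any of them.

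For photosynthesis and chlorophyll, the change was the more positive in ilp1-1 for LHCB2.3 (2.79), LHCB1.1 (2.02), CAO (1.47), LHCB4.2 (1.04), HEMA1 (0.85), PSAD2 (0.62) and PSBS (0.46). The opposite sign held for FNR2 (-0.84), LIN2 (-0.80), NYC1 (-0.80) and LHCB4.3 (-0.37). For the plastid ribosome encoded in the nucleus, the change was the more negative in ilp1-1 for RPL17 (-0.64), RPL6 (-0.63) and PSRP3/1 (-0.57). For photoprotection and antioxidants, the change was the more positive in ilp1-1 for ELIP2 (3.55), GPX7 (2.01), CAT2 (1.39), ZEP (1.36), VTE1 (1.07), BCH2 (0.99), ELIP1 (0.77), VTE5 (0.57) and VTC2 (0.39). A more negative one was found for FSD2 (-1.23), PRXQ (-0.83) and VDE (-0.62). For heat shock, mitochondrial stress and folding in the endoplasmic reticulum, the change was the more positive in ilp1-1 for GSTU25 (1.67) and CLPB3 (0.89). It was the more negative for AT2G41730 (-3.36), HSP17.6II (-3.12), HSP17.6A (-3.06), HSP17.6C (-2.90), HSP70-4 (-2.27), NAC013 (-1.93), HSP101 (-1.69), HSFA2 (-1.36), SOT12 (-1.28), AOX1A (-1.13) and BZIP60 (-0.62). Among genes of growth, ribosomes, splicing and cell types, the change was the more positive in ilp1-1 for XTH23 (2.06), XTH31 (0.57), RS41 (0.50) and RS40 (0.49). A more negative one was found for EXPA11 (-2.44), ATEXPA10 (-1.10), CDKB2;1 (-0.94), XTH4 (-0.50), IAA9 (-0.48) and U2AF65A (-0.46). For starch and sugars, the change was the more positive in ilp1-1 for TPS11 (2.24), STP13 (1.98), GBSS1 (1.80), PHS2 (1.54), DPE2 (1.42), TPS8 (1.23), GPT2 (1.22), ISA3 (0.85) and APL3 (0.45). It was the more negative for PWD (-1.82), SWEET12 (-1.80), DPE1 (-1.18), BAM3 (-1.04) and SUC2 (-0.93). For the clock, the change was the more positive in ilp1-1 for PRR9 (2.66), PRR5 (1.49), LNK2 (1.39), PRR7 (1.33), LNK4 (1.01), CCA1 (0.86), LNK1 (0.71), RVE8 (0.67) and GRP8 (0.54). A more negative one was found for RVE2 (-3.69), JMJD5 (-2.06), PRR3 (-1.72), ELF4 (-1.47), GI (-1.12), ELF3 (-0.88) and GRP7 (-0.71). For carbon fixation and photorespiration, the change was the more positive in ilp1-1 for GGT1 (0.25). It was the more negative for CP12-2 (-2.05), RBCS2B (-1.20), PRK (-0.67), GOX2 (-0.40) and RPI3 (-0.38). Among named genes outside the lists, the change was the more positive in ilp1-1 for AT4G18422 (3.82) and AT1G56300 (1.02). A more negative one was found for AT5G43455 (-5.01), AT4G12735 (-3.27), AT5G00755 (-3.25), DJC76 (-1.20) and SAMDC2 (-0.84). For nutrients, the change was the more positive in ilp1-1 for GLN1.1 (1.65). It was the more negative for GLN1.2 (-0.29). For flavonoids, the change was the more positive in ilp1-1 for MYBL2 (2.66), GSTF12 (1.35), MYB12 (1.24), DFR (1.15) and LDOX (1.00). For defence and hormones, the change was the more positive in ilp1-1 for PAD3 (2.56), WRKY46 (1.80), AOC3 (1.55), WRKY44 (1.14), EDS5 (1.00) and WRKY54 (0.54). The opposite sign held for LOX2 (-0.73) and MYB34 (-0.60). For cold and drought, the change was the more positive in ilp1-1 for CBF3 (1.40). For the plastid genome, the change was the more positive in ilp1-1 for TRNS.2 (5.22), PSBZ (4.96), TRNL.1 (4.63), PSBL (4.19), TRNS.3 (4.12), PSBJ (4.06), RBCL (3.71), TRNV.1 (3.47), PSBA (2.89) and PSAA (2.42).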

How the results depend on the processing

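The count of genes called in ilp1-1 at 8 h against 0 h (9068) was 7609 to 9098 under the other settings and 7567 to 7893 with 1 of the 4 libraries left out. The count for the difference between genotypes (2563) was 2115 to 2736, and 1792 to 2213 with 1 of 8 libraries left out. The share of ilp1-1 calls that were higher moved from 50.7% to 56.4% with total-read scaling and to 57.0% in limma-voom. The change of ILP1 ran from -0.72 to -0.45 with 1 library left out, was lost without ilp1-1 0 h replicate 2 (-0.45) and without ilp1-1 8 h replicate 1 (-0.54), and kept its direction and call in the other alternatives run. The difference for LHY (-0.29, not called) reversed to 1.62 with a pseudocount of 0.1 and to 3.77 in limma-voom. The 8 h libraries of LHY stood at 0.635 and 0.596 FPKM in ilp1-1 and at 0.0411 and 0 in Col-0. Changes of such low genes are understated by log2(FPKM + 1), and the part of this in the reversal was not tested. Among lists, salicylic acid genes called higher in ilp1-1 numbered 9 in limma-voom and 3 with no filter, against 5.

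With the replicate number as a block, 9008 genes were called in ilp1-1, 9608 in Col-0 and 2523 for the difference. Deviations of same-numbered libraries from their group means correlated at 0.0114 in ilp1-1 and -0.0007 in Col-0 across 19311 genes. A correlation over all genes cannot show whether same-numbered libraries shared a tray or a harvest, so it does not settle pairing. PR1, an immunity gene, was higher in replicate 2 of ilp1-1 at 0 h (399 and 715 FPKM) and at 8 h (192 and 410). In Col-0 it was so at 8 h (86 and 183) but not at 0 h (215 and 211). PR2 (106 and 162, then 151 and 269) and PR5 (127 and 231, then 218 and 379) were also higher in replicate 2 of ilp1-1 at 0 h and 8 h. The same held for PR1, PR2 and PR5 in ilp1-1 at 4, 16 and 30 h, while in Col-0 at 4 h all were lower in replicate 2. EDS5 was lower in replicate 2 of ilp1-1 at 8 h (15.6 and 11.1).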
